A study of Mus musculus with 12 samples.

Results

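Proneural factors and genes of newly formed neurons were examined in cultured adult neural stem/progenitor cells (aNSPCs). The set holds 9 genes of the 55401 listed, chosen by name. They are the basic helix-loop-helix (bHLH) factors Neurog2 and Neurod1, the homeobox factors Dlx1, Dlx2 and Dlx5, the SoxC factors Sox4 and Sox11, and the microtubule genes Dcx and Tubb3. All 9 were listed, and 7 had a mean of at least 0.1 FPKM (read fragments corrected for transcript length and for the mapped total of a sample) in the samples of each comparison, the level required for testing. Neurog2 and Dlx5 were below it in every comparison.

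The aNSPCs came from the forebrain of C57BL/6 mice aged 8 to 10 weeks, with no transgene named. The proliferating groups were Ctrl and 1 mM NAD+ in medium with EGF and FGF-2 at 20 ng/mL each, and the differentiation groups were Ctrl and 1 mM NAD+, with 1 µM retinoic acid and 5 µM forskolin added. Each of the 4 groups had 3 samples, which the study calls biological repeats, with no word on whether they came from separate mice or cultures, so the spread between them may be partly technical. One label field lists all 12 samples as untreated, and the groups here follow the sample titles, which name NAD+. The length of NAD+ exposure of the sequenced cells was not stated for RNA-seq, and these were cultures of mixed cells rather than sorted neurons. Read depth cannot be known from FPKM values rounded to 0.01. Proliferating Ctrl sample 1 stood apart in the sum of its FPKM values, 363330, beside 308828 to 349649 in the other 11 samples. The differences between the conditions in Ctrl, which use that sample, are given again without it after the related lists.

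Proneural bHLH factors bind E-box sequences together with E proteins and start the neuronal program, while Hes and Id proteins hold them back. Neurog2 acts in excitatory lineages and Neurod1 in cells that are turning into neurons. The Dlx factors specify GABAergic interneurons, such as those that the adult forebrain sends to the olfactory bulb. Sox4 and Sox11 act later and activate genes of immature neurons, among them Dcx and Tubb3. Doublecortin, made from Dcx, binds microtubules in migrating neuroblasts, and class III beta-tubulin, made from Tubb3 and detected by the antibody Tuj1, is a standard marker of neurons.

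The sequence just upstream of the start is shown for the 3 genes that were called between the culture conditions in both Ctrl and NAD+ samples, Sox4, Sox11 and Dcx. The runs are from RefSeq (GRCm38.p6), which had an entry for 8 of the 9 genes and none for Dlx5, on the minus strand of chr13:28953714-28953949 (Sox4), chr12:27342719-27342968 (Sox11) and chrX:143933312-143933469 (Dcx, first of 2 entries). Bases inside the GENCODE M21 gene model were left off. Capitals mark every E-box (CANNTG) and every CCAAT box (CCAAT, or ATTGG on the other strand), and the motifs did not overlap in these runs.
Sox4: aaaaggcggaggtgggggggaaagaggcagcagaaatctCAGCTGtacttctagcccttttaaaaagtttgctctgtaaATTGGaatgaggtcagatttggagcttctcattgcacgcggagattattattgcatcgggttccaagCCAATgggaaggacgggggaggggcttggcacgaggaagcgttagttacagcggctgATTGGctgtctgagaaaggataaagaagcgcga
Sox11: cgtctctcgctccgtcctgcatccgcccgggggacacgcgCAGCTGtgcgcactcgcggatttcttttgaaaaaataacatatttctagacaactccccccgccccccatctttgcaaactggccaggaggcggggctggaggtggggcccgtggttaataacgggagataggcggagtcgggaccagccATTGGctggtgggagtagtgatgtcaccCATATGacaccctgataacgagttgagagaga
Dcx: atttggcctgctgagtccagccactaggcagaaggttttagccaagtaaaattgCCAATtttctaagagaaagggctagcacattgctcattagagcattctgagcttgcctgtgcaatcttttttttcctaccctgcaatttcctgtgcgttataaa
The 236 bases of Sox4 held 3 CCAAT boxes and 1 E-box, and 2.51% of all 32851 windows of that length held at least as many CCAAT boxes. The 250 bases of Sox11 held 2 E-boxes and 1 CCAAT box, which 31.8% and 33.8% of all windows of that length also held at least as often. The 158 bases of Dcx held 1 CCAAT box, found in 21.2% of windows of that length, and no E-box, found in 51.1% of them. These matches describe the letters in these windows and were not tested for binding.

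Transcripts of the bHLH factors of the set were at or near 0. Neurog2 (ENSMUSG00000027967, chr3:127633135-127635631, plus strand, mm10) was listed at 0 FPKM in 11 samples and at 0.06 FPKM in NAD+ sample 2 of the differentiation condition. Neurod1 (ENSMUSG00000034701, chr2:79452521-79456751, minus strand) was listed at 0.18, 0.21 and 0.36 FPKM in the proliferating Ctrl samples and at 0.30, 0.20 and 0.25 FPKM with NAD+. Under differentiation conditions Neurod1 stood at 0.16, 0.26 and 0.12 FPKM in Ctrl and at 0.46, 0.15 and 0.33 FPKM with NAD+. All 4 groups overlapped, and the highest and lowest values were 0.46 and 0.12 FPKM. NAD+ against Ctrl differed by 0.02 on the log2(FPKM + 0.1) scale under proliferating conditions (95% interval -0.69 to 0.74) and by 0.52 under differentiation conditions (-0.40 to 1.43), with adjusted p = 0.976 and 0.466 by limma. Adding 0.1 before the log2 step understates fold changes at such low levels. Cerkl, a gene on the same strand that shares 201 exonic bases with Neurod1, reached at most 0.01 FPKM.

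The Dlx factors were also low. Dlx5 (ENSMUSG00000029755, chr6:6877805-6882085, minus strand) was listed at 0 FPKM in all 12 samples. Dlx1 (ENSMUSG00000041911, chr2:71528113-71533981, plus strand) was listed at 0.02, 0.13 and 0.12 FPKM in proliferating Ctrl samples, at 0.11, 0.17 and 0.08 FPKM in proliferating NAD+ samples, at 0.16, 0.06 and 0.12 FPKM in differentiation Ctrl samples and at 0.05, 0.24 and 0.14 FPKM in differentiation NAD+ samples. These groups overlapped throughout, and no comparison of Dlx1 passed the test. An antisense gene, Dlx1as, shares 335 exonic bases with Dlx1 on the opposite strand and had higher levels, with means of 0.283 and 0.34 FPKM in the proliferating Ctrl and NAD+ groups and of 0.767 and 0.787 FPKM in the differentiation groups. Dlx1as rose with differentiation in Ctrl by 1.28 (log2, adjusted p = 0.00609, limma) and with NAD+ by 1.01 (adjusted p = 0.0211). Whether counting used strand was not stated, so reads of Dlx1 and Dlx1as in the shared bases cannot be told apart.

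Dlx2 (ENSMUSG00000023391, chr2:71543408-71546754, minus strand) was listed at 0.16, 0.21 and 0.26 FPKM in proliferating Ctrl samples and at 0.10, 0.11 and 0.13 FPKM in differentiation Ctrl samples. With NAD+ it was listed at 0.21, 0.21 and 0.28 FPKM under proliferating and at 0.17, 0.06 and 0.06 FPKM under differentiation conditions. Every differentiation sample was below every proliferating sample of the same treatment, as in 33.9% of all tested genes in Ctrl and 41.7% with NAD+. In the NAD+ samples Dlx2 fell by 0.80 on the log2 scale (SE 0.27, 95% interval -1.39 to -0.21, adjusted p = 0.0237, limma). In Ctrl the difference was -0.53 (-1.12 to 0.06, adjusted p = 0.114). The call in the NAD+ samples was lost with median-ratio scaling (-0.63, adjusted p = 0.0629) and without proliferating NAD+ sample 3 (-0.70, adjusted p = 0.0827) or differentiation NAD+ sample 2 (-0.67, adjusted p = 0.0798) or 3 (-0.67, adjusted p = 0.0819).

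Sox4 was the most abundant of the 9 genes in every group and was lower under differentiation conditions. It is a gene of a single exon (ENSMUSG00000076431, chr13:28948919-28953713, minus strand, 4795 exonic bases). In proliferating Ctrl samples it was listed at 96.32, 112.13 and 111.54 FPKM, and in proliferating NAD+ samples at 95.63, 90.52 and 96.58 FPKM. In differentiation Ctrl samples it was listed at 53.92, 56.60 and 55.99 FPKM, and with NAD+ at 53.39, 50.80 and 54.40 FPKM. Every differentiation sample was below every proliferating sample of the same treatment, as in 33.9% of all tested genes in Ctrl and 41.7% with NAD+. The Ctrl and NAD+ samples overlapped in each condition. The mean went from 107 ± 8.96 to 55.5 ± 1.40 FPKM in Ctrl (SD, n = 3 each), and Sox4 fell by 0.94 on the log2 scale (SE 0.068, adjusted p = 8.38e-07, limma). In NAD+ samples it fell by 0.83 (adjusted p = 1.52e-06), from a mean of 94.2 ± 3.26 to 52.9 ± 1.86 FPKM (SD, n = 3 each). Under quantile normalization these falls were 0.44 and 0.35, with adjusted p = 0.00166 and 0.00661. NAD+ against Ctrl differed by -0.18 under proliferating (95% interval -0.39 to 0.03, adjusted p = 0.39) and by -0.07 under differentiation conditions (-0.18 to 0.04, adjusted p = 0.424). Gm26735, annotated across 2616 bases of Sox4 on the opposite strand, is not among the listed genes. Whether counting used strand was not stated, so reads of Gm26735 in the shared bases cannot be told apart from those of Sox4.

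Sox11, the closest relative of Sox4 in the set, was also lower under differentiation conditions. It too has a single exon (ENSMUSG00000063632, chr12:27334264-27342574, minus strand, 8311 exonic bases). The values were 9.18, 10.37 and 10.62 FPKM in proliferating Ctrl samples and 11.34, 12.23 and 13.13 FPKM in proliferating NAD+ samples. Under differentiation conditions they were 2.96, 2.93 and 2.71 FPKM in Ctrl and 4.07, 3.31 and 3.90 FPKM with NAD+. The Sox11 values with NAD+ therefore lay above every Ctrl value of the same condition, and all differentiation values lay below all proliferating ones. The latter, within a treatment, was also so for 33.9% of all tested genes in Ctrl and 41.7% with NAD+. With differentiation the mean went from 10.1 ± 0.769 to 2.87 ± 0.137 FPKM in Ctrl (SD, n = 3 each), which is 3.51-fold lower, and Sox11 fell by 1.77 on the log2 scale (SE 0.10, adjusted p = 1.40e-07, limma). With NAD+ it fell by 1.68 (adjusted p = 1.54e-07), from 12.2 ± 0.895 to 3.76 ± 0.399 FPKM (SD, n = 3 each).

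The NAD+ difference of Sox11 did not pass the adjusted threshold in either condition. Under proliferating conditions the NAD+ mean was 1.22 times the Ctrl mean, with a log2 difference of 0.28 (SE 0.10, 95% interval 0.04 to 0.52, adjusted p = 0.269, limma). Under differentiation conditions it was 1.31 times the Ctrl mean, with a log2 difference of 0.38 (SE 0.10, 0.12 to 0.63, adjusted p = 0.0895). In the exact two-sided permutation test of 3 against 3 samples both gave p = 0.1, the smallest that this design can give. Groups that did not overlap, higher with NAD+, made up 15.5% of all tested genes under proliferating and 9.68% under differentiation conditions. The NAD+ difference of Sox11 changed by 0.10 from one condition to the other (-0.22 to 0.41, adjusted p = 0.777).

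Dcx was higher under differentiation conditions, opposite to Sox4 and Sox11, the SoxC factors of the set. The gene (ENSMUSG00000031285, chrX:143855842-143933311, minus strand) has 6 annotated transcripts with 12647 exonic bases. It was listed at 1.02, 1.82 and 1.63 FPKM in proliferating Ctrl samples and at 1.47, 1.24 and 1.20 FPKM in proliferating NAD+ samples. It was listed at 3.96, 3.82 and 4.39 FPKM in differentiation Ctrl samples and at 3.61, 3.90 and 4.08 FPKM in differentiation NAD+ samples. Every differentiation sample was above every proliferating sample of the same treatment, as in 27.9% of all tested genes in Ctrl and 24.6% with NAD+. Ctrl and NAD+ samples overlapped in both conditions. In Ctrl the mean went from 1.49 ± 0.418 to 4.06 ± 0.297 FPKM (SD, n = 3 each), 2.72-fold higher, and Dcx rose by 1.42 on the log2 scale (SE 0.18, adjusted p = 5.44e-05, limma). In NAD+ samples it rose by 1.50 (adjusted p = 2.99e-05), from 1.30 ± 0.146 to 3.86 ± 0.237 FPKM. NAD+ against Ctrl differed by -0.15 under proliferating (95% interval -0.71 to 0.42, adjusted p = 0.793) and by -0.07 under differentiation conditions (-0.29 to 0.15, adjusted p = 0.697). In bulk RNA, a change in the number of Dcx-expressing cells and a change in RNA per cell cannot be told apart.

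Tubb3, the gene behind Tuj1 staining, passed the test in no comparison. The gene (ENSMUSG00000062380, chr8:123411424-123422015, plus strand) was listed at 9.44, 9.37 and 9.71 FPKM in proliferating Ctrl samples and at 8.23, 10.47 and 10.39 FPKM with NAD+. Under differentiation conditions it was listed at 14.22, 9.76 and 11.77 FPKM in Ctrl and at 10.32, 9.85 and 9.01 FPKM with NAD+. Differentiation Ctrl samples spread the most, and the lowest of them lay inside the NAD+ range. Each differentiation Ctrl sample was above each proliferating Ctrl sample, as in 27.9% of all tested genes. The log2 difference of 0.31 (95% interval 0.01 to 0.60) was not called, with an adjusted p = 0.0711 by limma. It passed under median-ratio scaling (0.44, adjusted p = 0.0121), under quantile normalization (0.57, adjusted p = 0.0032), and without differentiation Ctrl sample 2 (0.44, adjusted p = 0.0134) or proliferating NAD+ sample 1 (0.31, adjusted p = 0.0499). In NAD+ samples the condition difference was 0.01 (-0.28 to 0.30, adjusted p = 0.953), and under quantile normalization it was 0.40 (adjusted p = 0.0208). NAD+ against Ctrl differed by 0.02 under proliferating (-0.26 to 0.30, adjusted p = 0.953) and by -0.28 under differentiation conditions (-0.61 to 0.06, adjusted p = 0.288), where the means were 11.9 ± 2.23 FPKM in Ctrl and 9.73 ± 0.664 FPKM with NAD+ (SD, n = 3 each).

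**Figure D1:**
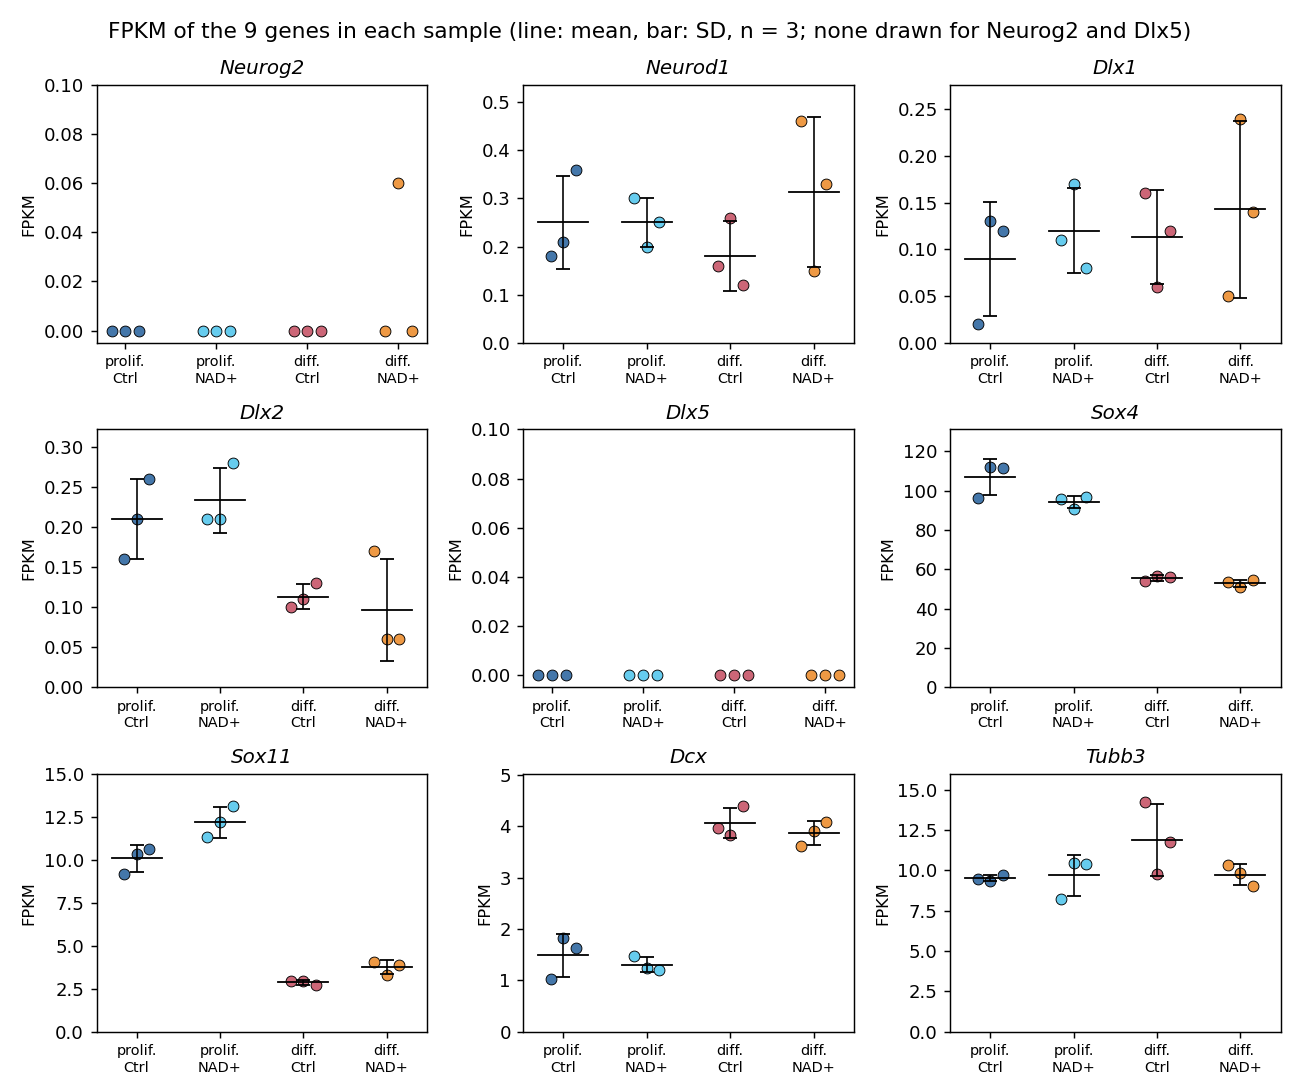
FPKM (linear axis from 0, own scale per gene) of each of the 9 genes in the 12 samples, grouped as proliferating (prolif.) or differentiation (diff.) Ctrl and NAD+, with 1 point per sample and, except for Neurog2 and Dlx5, a line for the mean and a bar for the SD (n = 3). Sox4 and Sox11 are lower and Dcx is higher in all differentiation samples, Sox11 lies above the Ctrl samples of its condition in each NAD+ sample, and Dlx5 is at 0 FPKM in all 12 samples.

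Counted over the set, 0 of the 7 tested genes passed an adjusted p of 0.05 by limma for NAD+ against Ctrl in either condition, and 1, Sox11, had an unadjusted p under 0.05 in each. Of all tested genes, 0.145% passed under proliferating and 6.92% under differentiation conditions, and 15.4% and 24.2% had an unadjusted p under 0.05. The thresholds of the study (unadjusted p under 0.05 and more than 2-fold) were applied to the limma p and the ratio of mean FPKM, not to the authors' own test. By them 0 of the 7 were called, beside 3.01% and 4.05% of tested genes. The median log2 difference of the 7 was 0.02 under proliferating and -0.07 under differentiation conditions, beside 0.07 and -0.08 over all tested genes. Without proliferating Ctrl sample 1, 0 of the 7 were called under proliferating conditions. The change of the NAD+ difference between the conditions passed for 0 of 7 genes by limma, with 0 at an unadjusted p under 0.05, beside 0.467% and 15.5% of all tested genes.

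Between differentiation and proliferating conditions, 3 of the 7 genes passed in Ctrl (Sox4 and Sox11 lower, Dcx higher) and 4 in NAD+ samples, where Dlx2 was lower as well. Of all tested genes, 56.7% passed in Ctrl, 25.0% higher and 31.6% lower, and 58.4% passed in NAD+ samples, 20.8% higher and 37.6% lower, so the share called in the set is near or below that of all genes. The conditions stand in separate tables, and it was not stated whether these were scaled together. Median-ratio scaling moved the median of all genes by 0.11 in Ctrl and by 0.25 in NAD+ samples, and with it Sox4 differed by -0.81 and -0.55, Sox11 by -1.65 and -1.40, and Dcx by 1.55 and 1.77. Without proliferating Ctrl sample 1, 3 genes passed in Ctrl (Sox4, Sox11 and Dcx), with differences of -1.01, -1.84 and 1.19.

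**Figure D2:**
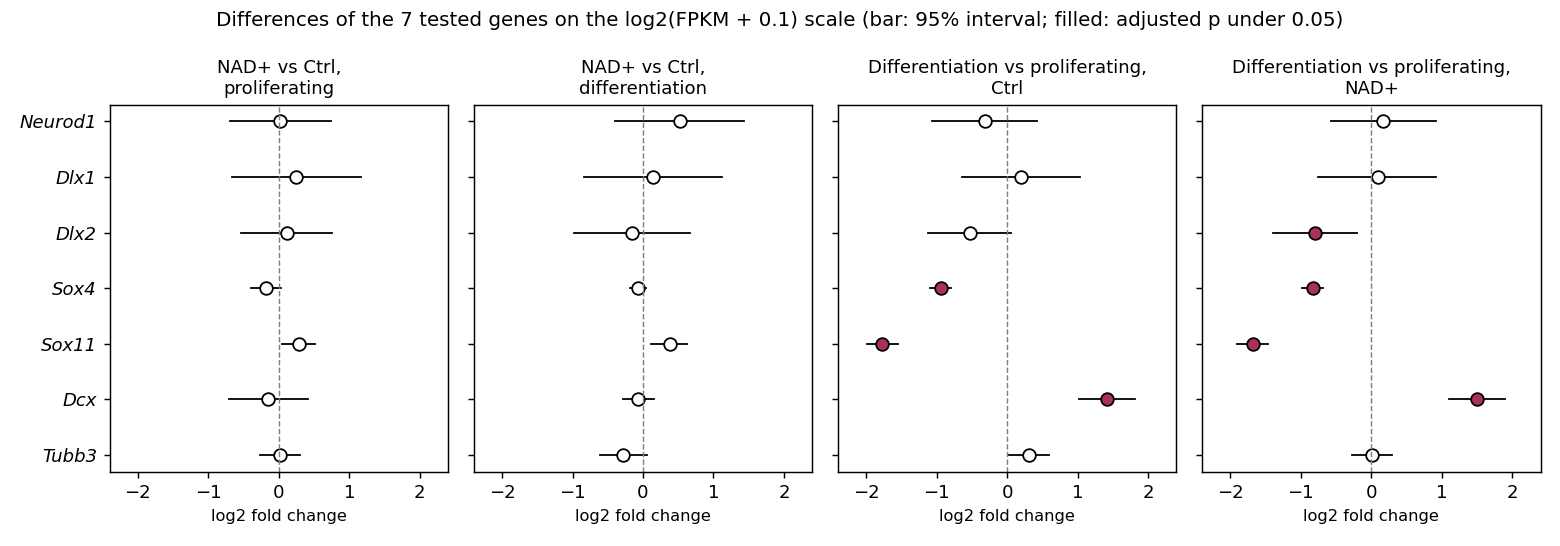
Log2 difference (log2(FPKM + 0.1) scale, horizontal axis) of the 7 tested genes in 4 comparisons, each with its 95% interval from limma, filled where the adjusted p was under 0.05. No point is filled for NAD+ against Ctrl, and Sox4, Sox11 and Dcx are filled in both comparisons of differentiation with proliferating conditions, Sox11 at -1.77 and Dcx at 1.42 in Ctrl.

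The order of the levels changed with the condition. FPKM is per transcript length, so levels can be set side by side between genes. In proliferating Ctrl samples Sox4 (mean 107 FPKM) lay above 99.3% of all listed genes, followed by Sox11 (10.1 FPKM) and Tubb3 (9.51 FPKM), whose ranges overlapped, by Dcx (1.49 FPKM), and by Neurod1 (0.25 FPKM) and Dlx2 (0.21 FPKM), which overlapped. In differentiation Ctrl samples the order was Sox4 (55.5 FPKM), Tubb3 (11.9 FPKM), Dcx (4.06 FPKM) and Sox11 (2.87 FPKM), with no overlap between neighbours. With NAD+ under differentiation conditions Dcx (3.86 FPKM) and Sox11 (3.76 FPKM) overlapped. Dlx1, Dlx2 and Neurod1 stayed at or below a mean of 0.313 FPKM in every group.

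**Figure D3:**
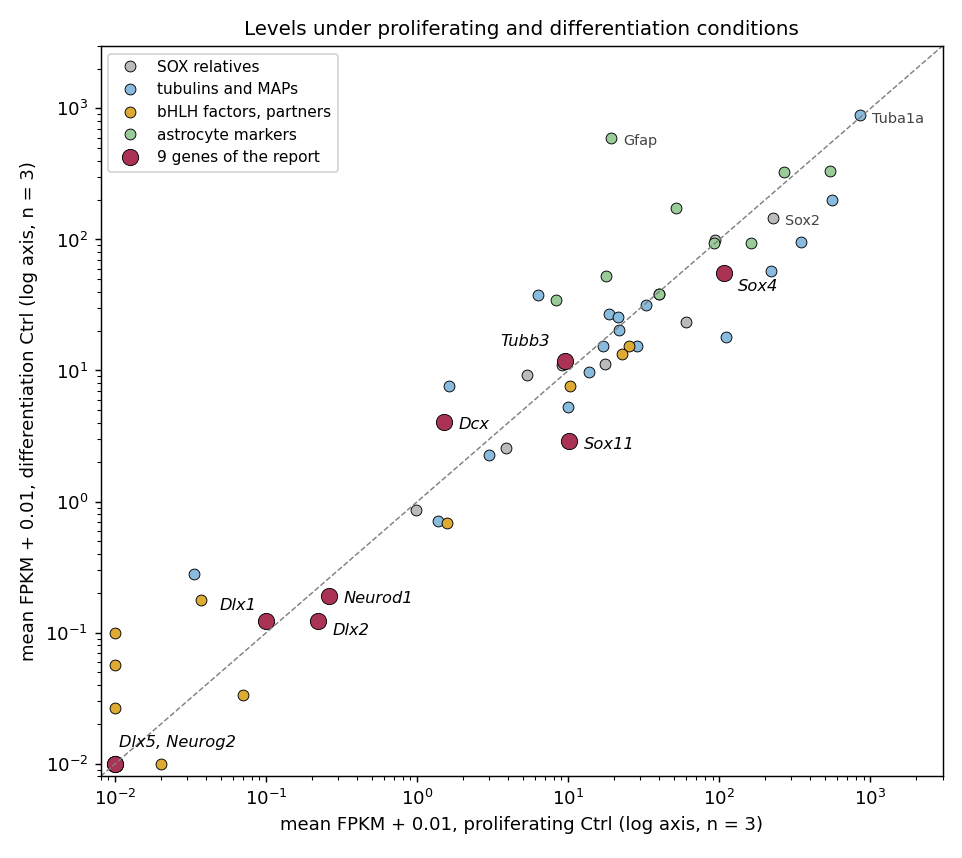
Mean FPKM + 0.01 (log axes, n = 3) of the 9 genes, of related gene lists and of astrocyte markers in proliferating Ctrl (horizontal) and differentiation Ctrl samples (vertical), with a dashed line where both are equal. Sox4 and Sox11 lie below the line, Dcx lies above it, and Gfap lies farthest above it, at 595 FPKM against 19.0 FPKM.

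Of 12 other bHLH factors and E protein partners, 5 were tested for NAD+ under differentiation conditions and 1 was called by limma, the E protein gene Tcf3, which was lower (-0.39 on the log2 scale, adjusted p = 0.0313). The call was lost with median-ratio scaling and in each fit that left out 1 sample, where the difference ranged from -0.44 to -0.34. Here and below, such fits rest on fewer samples. The share of all tested genes called in them is not given, so a lost call need not mean a changed difference. With differentiation in Ctrl, 3 of 4 tested genes were lower and 0 higher, namely Bhlhe22 (-1.09), Tcf12 (-0.77) and Tcf3 (-0.71). Beside this list and those that follow, 31.6% of all tested genes were called lower and 25.0% higher with differentiation in Ctrl. With NAD+ under differentiation conditions 4.65% were called lower and 2.27% higher.

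Among the early targets of proneural factors, 1 of 12 tested genes was called with NAD+ under differentiation conditions. This was Mfng, a modifier of Notch, with means of 1.63 ± 0.187 FPKM in Ctrl and 0.673 ± 0.168 FPKM with NAD+ (SD, n = 3 each), a fall of 1.18 (adjusted p = 0.0254, limma). It was called in 2 of the 6 fits that left out 1 sample. In differentiation against proliferating Ctrl samples, 3 of 11 rose and 4 fell, with the growth arrest gene Gadd45g (1.04) and the zinc finger factor gene Myt1 (0.92) higher, and Hes6 (-2.19), which opposes Hes1, and the antiproliferative gene Btg2 (-0.81) lower. Of 9 Hes, Hey, Id and Rest repressors, 1 was called with NAD+ under differentiation conditions. It was Hes5, a Notch effector, which went from 16.2 ± 0.471 to 8.75 ± 1.52 FPKM (SD, n = 3 each), a fall of 0.89 (adjusted p = 0.015), and lost the call without any 1 of the 3 Ctrl samples. Differentiation in Ctrl went with 5 of the 9 lower and 1 higher, beside 31.6% lower and 25.0% higher of all tested genes. Id3 (-2.34), Hes5 (-2.27) and Hes1 (-2.19) were among the lower genes, and Id4 (2.10) was higher.

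Genes of the 2 adult neuron lineages were mostly low. Of 19 entries of the olfactory bulb interneuron lineage, 10 were tested for NAD+ under differentiation conditions and 1 was called, the GABA synthesis gene Gad1 at a mean of 0.65 ± 0.0436 FPKM in Ctrl and 1.08 ± 0.0404 FPKM with NAD+ (0.66, adjusted p = 0.0416, limma), a call that was lost in each fit that left out 1 sample. The entry with the highest level was Etv1, at 3.85 FPKM in Ctrl and 4.32 FPKM with NAD+. With differentiation in Ctrl, 4 of 9 were lower and 0 higher, among them Gsx1 (-1.52), Etv1 (-1.30) and Pbx3 (-0.93). Of 9 genes of the dentate granule neuron lineage 2 were tested, Prox1 and Bhlhe22. Prox1 ranged from 3.50 to 6.52 FPKM over the 12 samples, with an NAD+ difference of 0.19 under differentiation conditions (adjusted p = 0.263). Bhlhe22 was listed at 0.59, 0.79 and 0.66 FPKM in differentiation Ctrl and at 0.32, 0.34 and 0.47 FPKM in differentiation NAD+ samples. Its difference of -0.72 was not called (adjusted p = 0.102, limma).

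Other SOX genes were called in both directions. Of 9 tested, 1 was higher and 1 lower with NAD+ under differentiation conditions. Sox9, an astrocyte and progenitor factor gene, rose by 0.38 (adjusted p = 0.014, limma), and Sox8, an oligodendrocyte lineage factor gene, fell by 0.77 (adjusted p = 0.00514). The call of Sox8 held in each of the 6 fits that left out 1 sample, and that of Sox9 was lost without differentiation Ctrl sample 1 or 2. With differentiation in Ctrl, 3 fell, Sox3 (-1.36), Sox2 (-0.61) and Sox5 (-0.55), and 1 rose, Sox10 (0.86, adjusted p = 0.0468), called in 3 of the 12 fits that left out 1 sample, and under median-ratio scaling 3 were lower and 3 higher.

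Several tubulins and microtubule-associated proteins, the families of Tubb3 and Dcx, were lower with NAD+ under differentiation conditions. With NAD+ under differentiation conditions, 6 of 18 were lower and 1 higher, beside 4.65% lower and 2.27% higher of all tested genes, and their median log2 difference was -0.22, beside -0.08 over all genes. Under median-ratio scaling 4 were lower and 2 higher. The lower genes were Tubb4a (-0.95), Dclk2 (-0.49), Tuba1a (-0.47), Tubb2b (-0.42), Tubb5 (-0.36) and Tubb2a (-0.24), and the higher gene was Dclk1 (0.29), a relative of Dcx. Tuba1a, an alpha-tubulin gene of growing neurons, went from a mean of 885 ± 16.0 to 641 ± 48.4 FPKM (SD, n = 3 each). Without differentiation Ctrl sample 1 or 3, 0 of the 18 were called, and without sample 2 of Ctrl or sample 3 of NAD+, 2 were called, both lower. Without NAD+ sample 1, 3 were lower, and without NAD+ sample 2, 5 were lower and 1 higher. Over these fits the differences ranged from -1.14 to -0.8 for Tubb4a, -0.55 to -0.44 for Dclk2 and -0.52 to -0.41 for Tuba1a. They ranged from -0.45 to -0.37 for Tubb2b, -0.4 to -0.3 for Tubb5, -0.26 to -0.21 for Tubb2a and 0.26 to 0.33 for Dclk1. In the same 18 genes, 4 rose and 8 fell with differentiation in Ctrl, with Tubb4a (2.60) and Map1b (2.20) higher and Stmn1 (-2.62) and Tubb5 (-1.93) lower. Tubb4a had means of 6.26 and 4.09 FPKM in proliferating and 37.6 and 19.7 FPKM in differentiation Ctrl and NAD+ samples. The myelin enzyme gene Cnp had means of 44.9, 37.9, 118 and 72.6 FPKM in the same order. Which cells of these mixed cultures the Tubb4a reads came from was not tested. Stmn2, a marker of growing axons, was at most 0.30 FPKM.

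Of 17 other genes of new neurons, Gap43 was lower with NAD+ in both conditions. This growth cone gene had means of 48.6 ± 3.32 FPKM in Ctrl and 24.0 ± 0.758 FPKM with NAD+ under proliferating conditions (SD, n = 3 each), a fall of 1.01 on the log2 scale (SE 0.081, adjusted p = 0.0266, limma). Under differentiation conditions it went from 9.50 ± 0.472 to 6.50 ± 0.282 FPKM, a fall of 0.54 (adjusted p = 0.011). The first call was kept without proliferating Ctrl sample 1 and was lost without any other of the 6 samples, with adjusted p from 0.0866 to 0.157 and differences from -1.06 to -0.96. It was the 1 gene called of 16 tested in this list under proliferating conditions. There 0 of 60 genes tested in the 7 other neurogenic lists were called by limma, beside 0.145% of all tested genes. Of the 60 genes, 18 had an unadjusted p under 0.05, beside 15.4% of all tested genes. Under differentiation conditions 3 of 16 were called, all lower, Gap43 together with the imprinted gene Nnat (-0.41) and the adhesion molecule gene Ncam1 (-0.25). The median of the list was 0.10, beside -0.08 over all genes. Leaving out 1 sample, Gap43 stayed called in each of the 6 fits, Nnat lost its call without differentiation Ctrl sample 1, and Ncam1 lost it in each fit. Gap43 (-2.34) and the neuroblast surface gene Cd24a (-1.05) fell with differentiation in Ctrl, and Ncam1 (1.13) and Nnat (0.91) rose, with 3 of 16 higher and 4 lower in all.

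**Figure D4:**
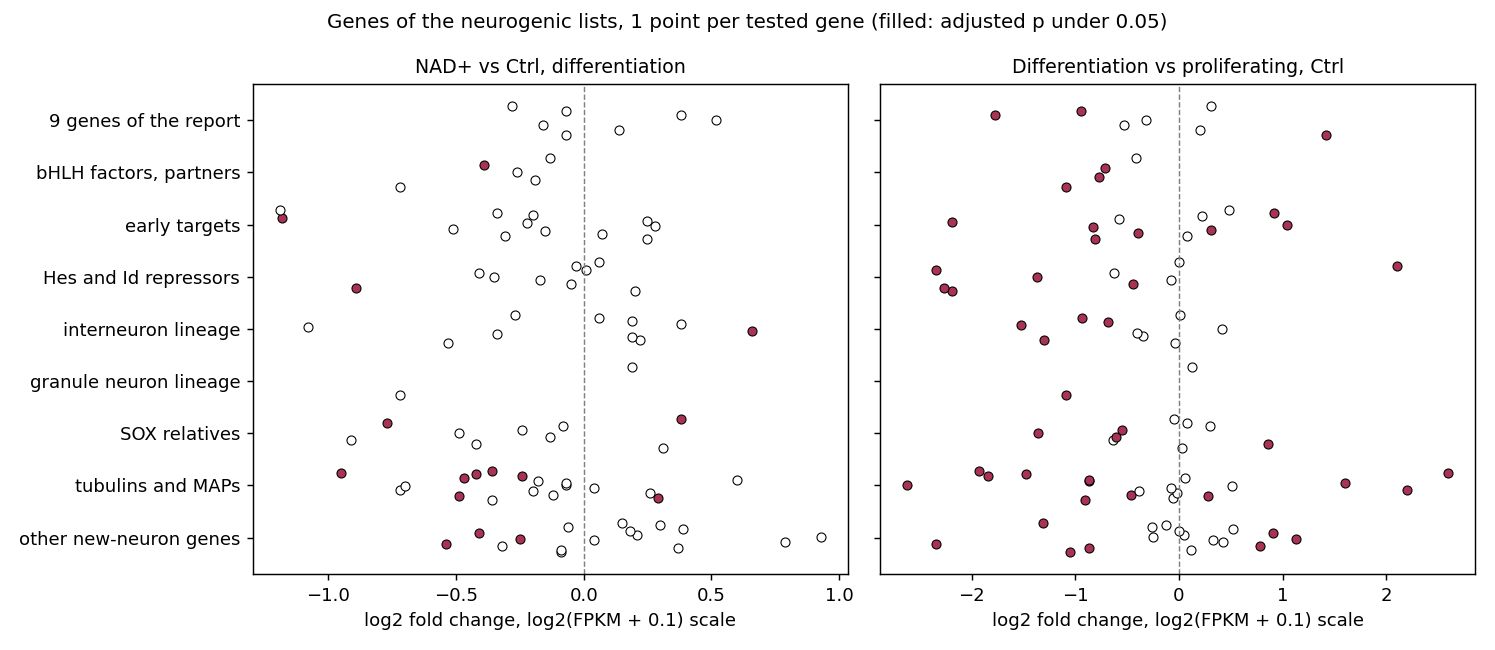
Log2 difference (log2(FPKM + 0.1) scale, horizontal axis) of each tested gene of the 9 genes of the report and of the 8 related lists (rows), filled where the adjusted p was under 0.05 by limma. For NAD+ against Ctrl under differentiation conditions (left) 0 of the 7 tested genes of the set and 7 of the 18 tubulins and microtubule-associated proteins (MAPs) are filled, and for differentiation against proliferating conditions in Ctrl (right) filled points lie on both sides of 0.

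Without proliferating Ctrl sample 1, the counts between the conditions in Ctrl were as above for the early targets, the interneuron and granule neuron lineages and the SOX genes. Of the 18 tubulins and MAPs 3 rose and 11 fell, in place of 4 and 8, with Map2 (-0.38, adjusted p = 0.000242, limma), Dclk1 (-0.26) and Dpysl3 (-0.19) among the lower genes and Dclk2 (0.18) no longer called. Map2, a dendrite protein gene, was at 10.56 FPKM in that sample, beside 20.59 and 19.47 FPKM in the other proliferating Ctrl samples. The repressor Rest (-0.22) and the guidance receptor gene Robo2 (-0.33) were also called lower, and the bHLH gene Nhlh1, not tested with all samples, was called higher. Among genes named above, the difference became 1.30 for Gadd45g, 0.69 for Myt1, 1.21 for Sox10 and -1.69 for Etv1. In the set Neurod1 (-0.46), Dlx1 (-0.10), Dlx2 (-0.65, adjusted p = 0.083) and Tubb3 (0.30, adjusted p = 0.122) were not called. For NAD+ under proliferating conditions Gap43 was the 1 gene called in all the lists without that sample (-1.02, adjusted p = 0.0401).

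Some markers of other cell types were called between the conditions and with NAD+ under differentiation conditions. Gfap, the astrocyte filament gene, stood at means of 19.0 FPKM in proliferating Ctrl, 14.6 FPKM in proliferating NAD+, 595 FPKM in differentiation Ctrl and 977 FPKM in differentiation NAD+ samples. The summed level of 9 astrocyte markers was 1160 to 1230 FPKM in proliferating Ctrl and 947 to 1100 FPKM in proliferating NAD+ samples. It was 1680 to 1810 FPKM in differentiation Ctrl and 2050 to 2160 FPKM in differentiation NAD+ samples, and most of the rise was Gfap. In both proliferating groups sample 1 had the highest value of Gfap, Aqp4, Aldh1l1, S100b and Gja1. This was not so for Slc1a2, Slc1a3, Aldoc and Sox9. With differentiation in Ctrl 5 of the 9 were called higher and 2 lower, Aldoc (-0.69) and S100b (-0.78). With NAD+ under differentiation conditions 4 of the 9 rose and 2 fell. Of these, Gfap (0.72) and Aldh1l1 (-0.61) stayed called in each of the 6 fits that left out 1 sample, Slc1a2 and Aldoc were called in 0 of them, and 1 to 3 markers rose and 1 fell in those fits, 1 rising without differentiation Ctrl sample 1. The summed level of 9 oligodendrocyte lineage markers was 1300 to 1420, 1050 to 1080, 488 to 492 and 379 to 410 FPKM in the same order of groups, and 1 of 8 tested fell with NAD+ under differentiation conditions, the myelin enzyme gene Cnp (-0.70), which lost its call without Ctrl sample 3 or NAD+ sample 3. Most of this sum was Olig1 and Olig2, at means of 961 and 334 FPKM in proliferating Ctrl samples. With differentiation in Ctrl 4 of the 8 tested markers rose, among them the myelin genes Mag (4.28) and Mbp (3.06), and 2 fell, Olig1 (-2.10) and Olig2 (-1.50), with a median of 0.59. Without proliferating Ctrl sample 1 Cspg4 (-0.51) fell as well. The summed level of 7 progenitor markers was 2490 to 2740 and 1500 to 2010 FPKM under proliferating conditions and 728 to 817 and 732 to 812 FPKM under differentiation conditions. Most of the proliferating sum was Fabp7, at means of 2110 FPKM in Ctrl and 1320 FPKM with NAD+, while Nes stood at 68.8 and 82.0 FPKM. The Fabp7 difference was not called (-0.70, adjusted p = 0.157, limma). For NAD+ under proliferating conditions 0 of 9 astrocyte, 0 of 7 tested oligodendrocyte lineage and 0 of 7 progenitor markers were called, beside 0.145% of all tested genes. With NAD+ under differentiation conditions Vim rose (0.75, adjusted p = 0.0202, limma) and Pax6 (-0.39) and Msi1 (-0.38) fell. The Vim call was kept without differentiation Ctrl sample 1 and lost without any other of the 6 samples, and the Pax6 and Msi1 calls were lost in each fit that left out 1 sample. Microglial, endothelial, and mural and fibroblast markers summed to at most 0.44, 0.86 and 0.79 FPKM in any sample, and 4 ependymal markers to between 9.34 and 32.0 FPKM. The part of these cell types in the values of Sox4, Sox11, Dcx and the tubulins was not tested. Genes of maturing neurons spread widely in level. Rbfox3 was at most 0.34 FPKM, Syt1 at most 0.61 FPKM and Snap25 at most 1.09 FPKM, while over the 12 samples Map2 ranged from 10.56 to 20.59 FPKM, Mapt from 5.13 to 32.45 FPKM, Ina from 2.68 to 4.84 FPKM and Elavl3 from 2.70 to 5.85 FPKM.

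The genes whose pattern over the 12 samples lay closest were named by the root mean square difference of their centred log2(FPKM + 0.1) values, among 12928 genes with a mean of at least 1 FPKM. Closest to Sox4 were Map2k4 (0.073), Hsp90ab1 (0.076) and Ddx18 (0.084). Sox11 had Scrn1 (0.13), AI506816 and Fzd10 (0.14 each), and Dcx had Arhgef4, Rasa2 (0.15 each) and Clk4 (0.16). For Tubb3 the closest were Rabl2 (0.1), Zfp9 and Pbx2 (0.11 each), and for Dlx2 Gm5854, Mcts2 (0.15 each) and Recql (0.16). For Neurod1 (Mkln1, Gm10080 and BC031181) and Dlx1 (Gm46620, Zcchc2 and Gm49863) the differences were 0.23 to 0.27. The 12 samples share 4 groups.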

How the data were processed

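RNA-seq of 12 aNSPC samples was used, with 0 per-sample columns left out. The authors mapped reads to mm10 with Hisat2 2.0.5, counted uniquely mapped reads with FeatureCounts 2.0.1 and deposited FPKM values of 55401 genes in a table per condition, rounded to 0.01. The program that made the FPKM values is not given in the sources used here, and depth per sample is unknown, so no counting error can be given. The authors' fold change, log2 fold change, p-value and q-value columns, per the file headers, were not used.

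The FPKM values were not scaled further. Genes that averaged 0.1 FPKM or more in the samples of a fit were tested on log2(FPKM + 0.1) with limma 3.58.1 in R 4.3.3 (moderated variance with trend, two-sided) and adjusted over all tested genes by the Benjamini-Hochberg method. NAD+ was compared with Ctrl in the 6 samples of a condition (18597 genes under proliferating and 19611 under differentiation conditions). The other comparisons were contrasts of 1 fit of all 12 samples with 4 group means (19498 genes). A call is an adjusted p under 0.05. Differences are first minus second group as named. The code was tested on simulated data with known changes.

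The 9 genes and all lists were chosen with earlier results of these data known, and some genes are not reported here. From each list, up to 4 called genes with the largest differences and a mean of at least 1 FPKM were named, or else the most abundant gene. Tubb5, Tubb2a, Dclk1, Gad1, Stmn2, Rbfox3, Syt1, Snap25, Map2, Mapt, Ina, Elavl3, Dpysl3, Rest, Robo2, Nhlh1, Slc1a2, Aldoc, S100b and Cspg4 were named after their values were seen. Positions are from GENCODE M21. Samples with the same number in the titles correlated around their group means at 0.0181 to 0.107 within a condition. Samples with different numbers correlated at -0.108 to 0.0713 under proliferating and at -0.0385 to -0.00643 under differentiation conditions. No pairs are named in the sources used here, so the numbers were not taken as pairs in the main fits. Alternatives were 1 or 0.01 added before log2, no filter or a minimum mean of 1 FPKM, median-ratio scaling, quantile normalization, a replicate block, no moderation, 1 fit for both conditions, and leaving out each sample. Figures were drawn with matplotlib 3.10.9, and tables were made in Python 3.11.15 with pandas 2.3.3, numpy 2.4.6 and scipy 1.17.1.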

Additional observations from a re-analysis of the deposited data

How the results depend on the processing

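The precision is set by 3 samples a group, by an unknown depth and by rounding to 0.01 FPKM, which weighs most on Neurod1, Dlx1 and Dlx2. Leaving out each sample in turn, 0 of the 7 genes were called for NAD+ against Ctrl in either condition and for the change of that difference, and 3 to 4 were called between the conditions in Ctrl and 3 to 4 in NAD+ samples. With quantile normalization 5 genes were called between the conditions in Ctrl (Sox4, Sox11, Dcx, Dlx2 and Tubb3). Sox4, Sox11 and Dcx kept their direction and call between the conditions, in Ctrl and in NAD+ samples, under every setting run. Sox11 stayed uncalled for NAD+ in each setting, with differences from 0.21 to 0.33 under proliferating and 0.30 to 0.46 under differentiation conditions.

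The sign turned only for differences that were not called, in 11 values from other settings and in 21 from leaving out a sample, and the cause was not tested. With median-ratio scaling the NAD+ difference under proliferating conditions was -0.021 for Neurod1 and -0.046 for Tubb3, and under differentiation conditions 0.013 for Sox4 and 0.014 for Dcx. With quantile normalization the NAD+ difference was -0.0092 for Neurod1 and -0.052 for Tubb3 under proliferating conditions and 0.02 for Dcx under differentiation conditions, the change of the NAD+ difference was 0.18 for Dlx1, and the condition difference was -0.32 for Dlx1 in Ctrl and -0.032 for Neurod1 and -0.13 for Dlx1 in NAD+ samples. Leaving out a sample, the NAD+ difference ranged under proliferating conditions from -0.12 to 0.24 for Neurod1, -0.052 to 0.42 for Dlx1, -0.01 to 0.22 for Dlx2, -0.38 to 0.0067 for Dcx and -0.039 to 0.13 for Tubb3, and under differentiation conditions from -0.14 to 0.45 for Dlx1. The change of the NAD+ difference ranged from -0.39 to 0.2 for Dlx1 and -0.075 to 0.31 for Dcx, and the condition difference from -0.1 to 0.39 for Dlx1 in Ctrl and, in NAD+ samples, from -0.084 to 0.5 for Neurod1, -0.19 to 0.4 for Dlx1 and -0.1 to 0.07 for Tubb3.

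With the replicate number as a block, 0, 0, 0, 3 and 4 genes of the set were called in the 5 comparisons, as without it. Over all genes the block gave 0 calls in place of 27 for NAD+ under proliferating and 758 in place of 1357 under differentiation conditions, and 26 in place of 91 for the change of that difference. Of the 12 samples, 10 correlated best with their own number in the other group of their condition, a hint from the data and not from the design. Counts over all genes also went from 27 to 735 with all 12 samples in 1 fit, 75 with a minimum mean of 1 FPKM, 60 with quantile normalization, 9 without the filter and 0 without moderation, from 1357 to 594 without moderation, and from 91 to 139 with 1 added. Of the genes called with NAD+ under differentiation conditions 32.8% were higher, or 53.6% with median-ratio scaling, under proliferating conditions 33.3%, or 21.2%, for the change of the NAD+ difference 47.3%, or 74.2%, and between the conditions in NAD+ samples 35.6%, or 50.8%.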
